A study of Mus musculus with 19 samples.

Results

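Sox1, Sox2, Sox3 and Sox21, SoxB transcription factor genes of neural stem cells, were followed in the cortex of E14.5 mouse embryos (E, embryonic day) with an active Hedgehog pathway. They were the 4 rows with these symbols among 47643 rows of the expression table, and all 4 passed the expression filter that left 13520 genes to test. The mutants carried GFAP::Cre; SmoM2: a Cre recombinase under a GFAP promoter switches on SmoM2, a form of the Hedgehog receptor component Smoothened that is always active. The controls were wildtype. Bulk RNA-seq libraries came from dissected medial and dorsal cortex, with 4 mutant and 5 control medial libraries and 4 mutant and 6 control dorsal libraries, 19 in all. The tissue field of the labels names dorsal or medial cortex, whereas the protocol speaks of medial or lateral pieces. The Cre is not limited to 1 cell type by anything in the labels, and the libraries hold all cells of the tissue.

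SoxB proteins are transcription factors that bind DNA through an HMG box, usually next to a partner such as a POU protein. Sox1, Sox2 and Sox3, the SoxB1 group, act mainly as activators and keep neural progenitors from differentiating into neurons, with overlapping roles. Sox21 and its relative Sox14, the SoxB2 group, share the same DNA-binding domain but act mainly as repressors, and Sox21 promotes neuronal differentiation in the chick spinal cord. In the developing cortex these genes are expressed in the radial glia of the ventricular zone, the stem cells that give rise to neurons. The name of stem cell factors thus rests mainly on the SoxB1 members.

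Each member is a protein-coding gene of 1 exon in GENCODE M21 on GRCm38, the assembly also called mm10. Sox1 lies at chr8:12395295-12400126 on the plus strand, and Sox2 at chr3:34650405-34652461, also on the plus strand. Sox3 lies at chrX:60891366-60893430 and Sox21 at chr14:118233232-118237030, both on the minus strand. Shown is the stretch of 120 coding bases of Sox2 that was most alike in the other members, within the part that encodes the HMG box. It is a place where reads of 1 member could be given to another. It lies at chr3:34650539-34650658 for Sox2, chr8:12396508-12396627 for Sox1, chrX:60892885-60893004 for Sox3 and chr14:118235498-118235617 for Sox21 (GRCm38, each 5′ to 3′ on the coding strand). Capitals mark bases that differ from Sox2.
Sox2: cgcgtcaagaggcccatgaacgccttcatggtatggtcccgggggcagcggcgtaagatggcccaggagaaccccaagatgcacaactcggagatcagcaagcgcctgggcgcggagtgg
Sox1: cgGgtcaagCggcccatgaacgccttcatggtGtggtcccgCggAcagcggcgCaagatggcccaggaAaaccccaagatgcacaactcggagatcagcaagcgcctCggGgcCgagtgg
Sox3: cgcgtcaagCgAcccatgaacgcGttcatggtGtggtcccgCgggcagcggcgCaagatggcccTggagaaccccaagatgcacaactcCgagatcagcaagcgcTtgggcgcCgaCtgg
Sox21: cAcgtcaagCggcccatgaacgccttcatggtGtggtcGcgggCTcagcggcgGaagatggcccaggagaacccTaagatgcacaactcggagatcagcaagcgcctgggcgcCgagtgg

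In this stretch Sox1 differed from Sox2 at 10 bases, Sox3 at 11 and Sox21 at 9. Over whole transcripts, the longest run of identical bases was 45 bases between Sox1 and Sox3, and between 28 and 38 bases in the other pairs of members. The run of Sox1 and Sox3 was longer than any they share within the stretch shown. How the authors assigned reads that match several genes is not given in the sources used here.

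Promoter windows are shown for Sox1 and Sox2, the members that were higher in mutants of both regions. They run from 250 bases before to 50 bases after the gene start in RefSeq (GRCm38.p6), and entries were found for 3 of the 4 members, Sox1, Sox2 and Sox21. The Sox1 window lies at chr8:12395269-12395568 and the Sox2 window at chr3:34649745-34650044, both on the plus strand. GENCODE places the Sox1 start inside the Sox1 window, but the Sox2 start, at chr3:34650405, beyond the end of the Sox2 window. Capitals mark matches to ATGCAAA, the octamer-like letters bound by POU proteins, and to ACAAAG, a SOX core.
Sox1: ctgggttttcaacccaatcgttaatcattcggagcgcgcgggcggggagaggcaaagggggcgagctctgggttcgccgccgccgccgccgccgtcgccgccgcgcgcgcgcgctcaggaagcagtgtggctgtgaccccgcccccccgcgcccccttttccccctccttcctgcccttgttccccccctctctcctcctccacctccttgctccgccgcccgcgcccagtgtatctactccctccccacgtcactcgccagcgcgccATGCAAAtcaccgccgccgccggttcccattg
Sox2: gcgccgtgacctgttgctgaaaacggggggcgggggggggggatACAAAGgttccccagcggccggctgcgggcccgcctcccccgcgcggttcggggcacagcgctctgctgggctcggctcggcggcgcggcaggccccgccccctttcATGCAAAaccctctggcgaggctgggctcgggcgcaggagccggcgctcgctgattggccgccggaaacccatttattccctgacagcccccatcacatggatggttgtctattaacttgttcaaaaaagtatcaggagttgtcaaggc

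Both strands were searched for ATGCAAA, for the SOX cores ACAAAG and ACAATG, and for the GLI letters TGGGTGGTC. ATGCAAA stood once in the Sox1 window (positions 269 to 275, counted from its 5′ end) and once in the Sox2 window (152 to 158), and it was present in 4.63% of 32851 RefSeq promoter windows. ACAAAG stood once in the Sox2 window (45 to 50), against 18.7% of all windows, and did not overlap the octamer. No ACAATG (12.6% of windows) and no TGGGTGGTC (0.253%) was in the Sox1, Sox2 or Sox21 window. GC content was 70.7% for Sox1, 66.3% for Sox2 and 65.7% for Sox21, with 37, 27 and 22 CpG dinucleotides, against medians of 52.7% and 7 over all windows.

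Values are in TPM, transcript levels scaled for gene length and to the same total in each library, which leaves the read depth unknown. A library detected 17357 to 18670 genes. Smo lay between 158 and 183 TPM in mutant medial libraries, against 107 to 134 TPM in control medial ones, and between 110 and 154 TPM in mutant dorsal libraries, against 73.4 to 91.5 TPM in control dorsal ones. Gli1, a target of Hedgehog signalling, was at 24.3 TPM or more in every mutant library and at 1.08 TPM or less in every control library, so no library went against its genotype label. All 21 radial glia markers averaged above 1 TPM in every group. Xist marked control embryos 2, 3 and 4 as female, while the other controls and all mutants were male. Nothing in the labels states that replicates are different embryos, and a p-value here rests on the spread among libraries, part of which may be technical.

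Sox2 was the most abundant member in all 19 libraries, and the order of the others differed between genotypes. Sox1 was above Sox3 and above Sox21 in 4 of 4 mutant medial libraries and 4 of 4 mutant dorsal ones. In control medial cortex Sox1 was below both in 5 of 5 libraries. In control dorsal cortex Sox1 was above Sox3 in 1 of 6 libraries and above Sox21 in 1 of 6, and the 3 genes lay within each other's spread. Sox21 and Sox3 were not separated in any group, with Sox21 the higher in 2 of 4 mutant medial, 1 of 5 control medial, 3 of 4 mutant dorsal and 2 of 6 control dorsal libraries.

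**Figure D1:**
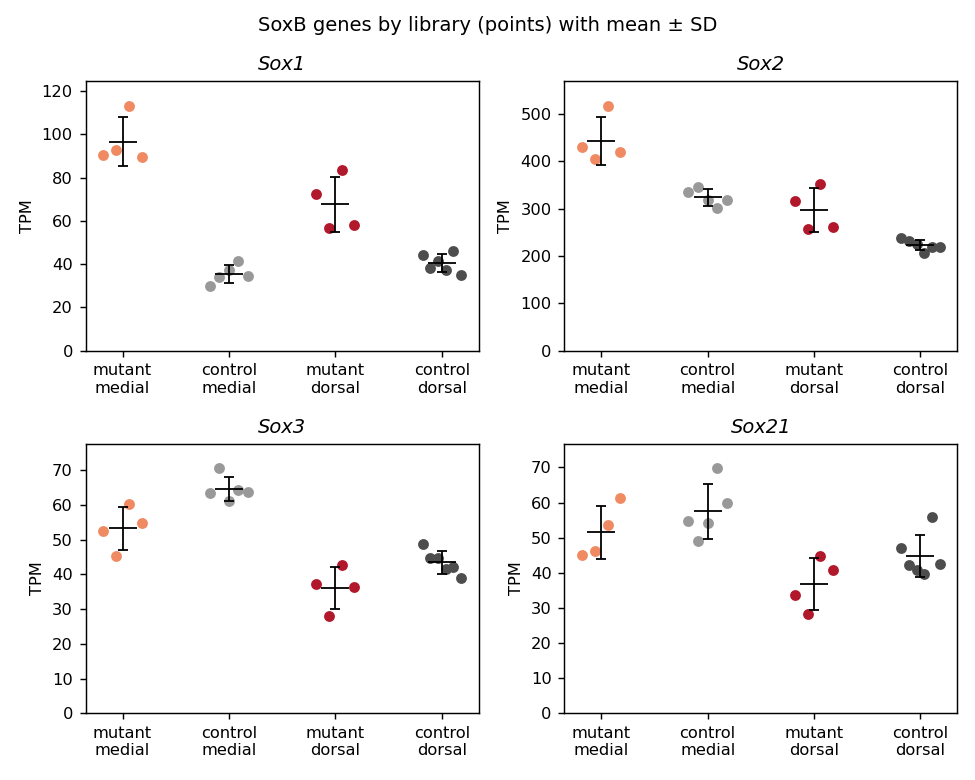
TPM of Sox1, Sox2, Sox3 and Sox21 in each library (points), with the mean and SD of each group (bars), for mutant and control medial cortex (n = 4 and 5) and mutant and control dorsal cortex (n = 4 and 6). Within each region, Sox1 and Sox2 lay above all controls of that region in every mutant library. Sox3 lay below all controls of the same region only in medial mutants, and Sox21 overlapped in both regions.

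The effect of the active Smoothened was read by comparing mutant with control within each region. With the values as deposited, Sox1 and Sox2 rose in both regions and Sox3 fell in both, while Sox21 did not pass the test in either. Thus 2 members were higher and 1 lower in medial cortex, where 9.44% of all tested genes were higher and 30.2% lower, and likewise 2 and 1 in dorsal cortex, where 9.93% were higher and 27.6% lower. After rescaling by median ratios, 2138 genes were higher and 2341 lower medially, against 1276 and 4081 as deposited, and 2079 and 1998 dorsally, against 1343 and 3727; quantile scaling gave 2164 and 2275 medially and 1959 and 2173 dorsally. These scalings set the median change of all tested genes to between −0.02 and −0.01. Under either scaling 2 members were higher and 0 lower in each region, since the Sox3 calls were lost. The Sox3 calls were also lost with a term for sex. The median log2 change of the 4 members was 0.14 medially and 0.06 dorsally, against −0.11 and −0.10 over all tested genes. Fold changes and tests are limma estimates on log2(TPM + 1), adjusted over all tested genes, with a threshold of 0.05. In bulk tissue, more cells of a type and more RNA per cell cannot be told apart.

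Sox1, the SoxB1 member that marks committed neuroectoderm early, changed most. It stood at 90.5, 92.8, 113 and 89.4 TPM in mutant medial libraries, against 30.0, 34.2, 37.3, 41.7 and 34.4 TPM in control medial libraries. The lowest mutant value lay well above the highest control value. The log2 change was 1.42 ± 0.11 (SE), or 2.67-fold (limma adjusted p = 9.50e-08), and ranked 58th from the top of 13520 genes. In dorsal cortex Sox1 stood at 72.5, 56.8, 83.6 and 57.9 TPM in mutants, against a lowest, median and highest value of 35.2, 39.8 and 46.0 TPM in controls. The groups did not overlap here either, with a log2 change of 0.72 ± 0.11 or 1.65-fold (limma adjusted p = 7.42e-05), at rank 338. Higher values without overlap were found for 7.63% of tested genes medially and 7.25% dorsally.

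Sox2, needed to maintain neural stem cells and the most abundant of the members, rose by a smaller factor from a higher level. It stood at 430, 405, 518 and 419 TPM in mutant medial libraries, against 336, 345, 318, 301 and 319 TPM in control medial libraries. In dorsal cortex it stood at 316, 257, 353 and 261 TPM in mutants, against a lowest, median and highest value of 206, 223 and 238 TPM in controls. Every mutant lay above every control of its region. The log2 change was 0.45 ± 0.08 medially (1.36-fold, limma adjusted p = 0.000487) and 0.40 ± 0.08 dorsally (1.32-fold, limma adjusted p = 0.00100), at ranks 635 and 786. In TPM the mean difference was larger for Sox2 than for Sox1, with 443 ± 50.8 against 324 ± 17.4 TPM for Sox2 and 96.5 ± 11.3 against 35.5 ± 4.30 TPM for Sox1 in medial mutants and controls (SD, n = 4 and 5).

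Sox3, the X-linked SoxB1 member, moved the other way. It stood at 52.4, 45.4, 60.3 and 54.8 TPM in mutant medial libraries, against 63.5, 70.5, 61.0, 64.3 and 63.7 TPM in control medial libraries. These groups did not overlap, but the highest mutant and the lowest control differed by less than the SD of either group. In dorsal cortex it stood at 37.2, 28.0, 42.7 and 36.3 TPM in mutants, against a lowest, median and highest value of 39.0, 43.4 and 48.8 TPM in controls, and 1 mutant library lay inside the control range. Sox3 fell by 0.28 ± 0.10 medially and 0.27 ± 0.09 dorsally on the log2 scale (limma adjusted p = 0.0268 and 0.0266). Lower values without overlap were found for 22.7% of tested genes medially. Both calls were lost when libraries were rescaled by median ratios (log2 change −0.18 medially, −0.19 dorsally, adjusted p = 0.160 and 0.138), by quantiles (−0.21 and −0.19, adjusted p = 0.107 and 0.120), or when sex was a term (−0.27 and −0.27, adjusted p = 0.0702 and 0.0594). Leaving out mutant library 2 moved the dorsal change to −0.16 (adjusted p = 0.124) and the medial change to −0.21 (adjusted p = 0.112), and the calls were also lost without control library 1 dorsally and without control library 3 or mutant library 1 medially.

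Sox21, the SoxB2 member, stood at 45.2, 46.1, 53.5 and 61.3 TPM in mutant medial libraries, against 54.8, 49.1, 54.1, 69.8 and 60.0 TPM in control medial libraries. In dorsal cortex it stood at 33.8, 28.2, 44.7 and 40.7 TPM in mutants, against a lowest, median and highest value of 39.7, 42.5 and 55.9 TPM in controls. Mutants and controls overlapped in both regions. The log2 change was −0.16 medially (95% interval −0.43 to 0.12, limma adjusted p = 0.363) and −0.29 dorsally (−0.55 to −0.02, limma adjusted p = 0.0831). With a term for sex, the dorsal change was −0.42 (adjusted p = 0.0154), and without mutant library 3 it was −0.38 (adjusted p = 0.0351). The effect of sex itself did not pass the limma test for any member (adjusted p from 0.696 to 0.964). It was estimated from controls alone, since all mutants were male.

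**Figure D2:**
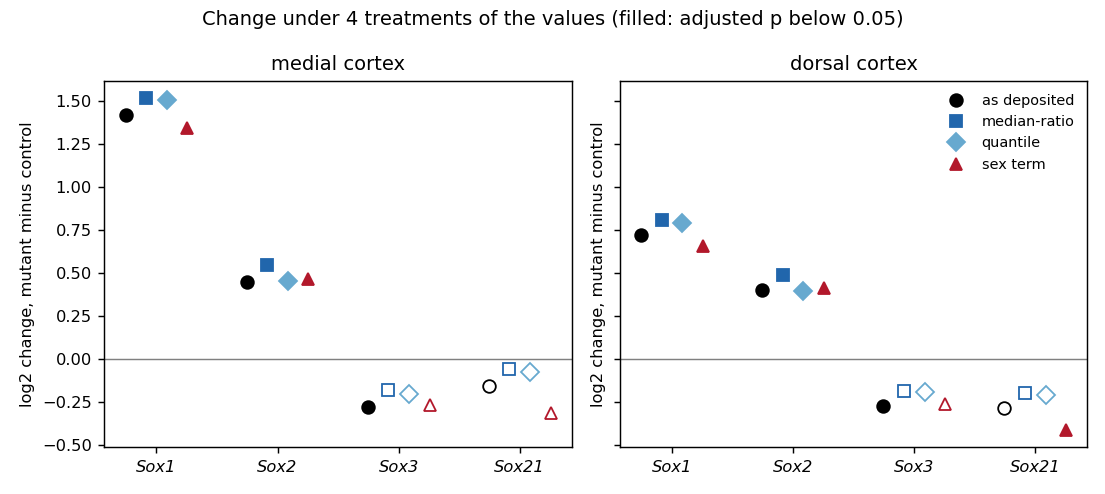
Log2 change (mutant minus control) of each member in medial and dorsal cortex with the values as deposited, after rescaling by median ratios, after quantile normalization, and with a term for sex; filled symbols passed an adjusted p of 0.05. Sox1 and Sox2 stayed filled and above 0 in all of these, whereas Sox3 was filled only as deposited and dorsal Sox21 only with the sex term.

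Ratios of members within a library do not change when a library is multiplied by 1 factor, and they separated the genotypes for most pairs. Medially, Sox1 stood at 0.218 ± 0.00808 of Sox2 in mutants and 0.110 ± 0.0188 of Sox2 in controls (SD, n = 4 and 5). Dorsally, it stood at 0.227 ± 0.00735 of Sox2 in mutants and 0.181 ± 0.0179 of Sox2 in controls (SD, n = 4 and 6). Sox1 thus made up 16.3% and 16.9% of the summed TPM of Sox1, Sox2 and Sox3 in mutant medial and mutant dorsal cortex, against 8.41% and 13.2% in control medial and control dorsal cortex. Sox3 made up 8.99% medially and 9.02% dorsally in mutants, against 15.2% medially and 14.1% dorsally in controls. The sum of these 3 genes averaged 593 ± 66.9 TPM in mutant medial libraries and 424 ± 16.7 TPM in control medial libraries, and 400 ± 64.1 TPM in mutant dorsal libraries and 307 ± 16.1 TPM in control dorsal libraries.

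Of 12 log2 ratios tested, 6 pairs in 2 regions, 10 differed between genotypes in two-sided exact permutation tests. Ratios of a region can be computed from each other, so the 10 are not separate results. They also rest on the same libraries as the tests of single members. Medially, Sox1 over Sox3 was higher by 1.73, Sox1 over Sox21 by 1.60, Sox1 over Sox2 by 1.00 and Sox2 over Sox3 by 0.73 on the log2 scale in mutants, without overlap. Each had an exact p = 0.0159, the smallest that 126 splits allow (adjusted p = 0.0212 over the 12 ratios). Dorsally, Sox1 over Sox21 was higher by 1.03, Sox1 over Sox3 by 1.01, Sox2 over Sox21 by 0.69, Sox2 over Sox3 by 0.68 and Sox1 over Sox2 by 0.33, again without overlap. Here the exact p was 0.00952, the smallest that 210 splits allow (adjusted p = 0.0212). Medial Sox2 over Sox21 was higher by 0.61 with overlap (exact p = 0.0317, adjusted p = 0.0381), and this call was lost in 7 of 9 fits that left out 1 library, with values from 0.51 to 0.72. Sox21 over Sox3 did not pass the test, with differences of 0.12 medially (exact p = 0.444) and −0.01 dorsally (exact p = 0.981).

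**Figure D3:**
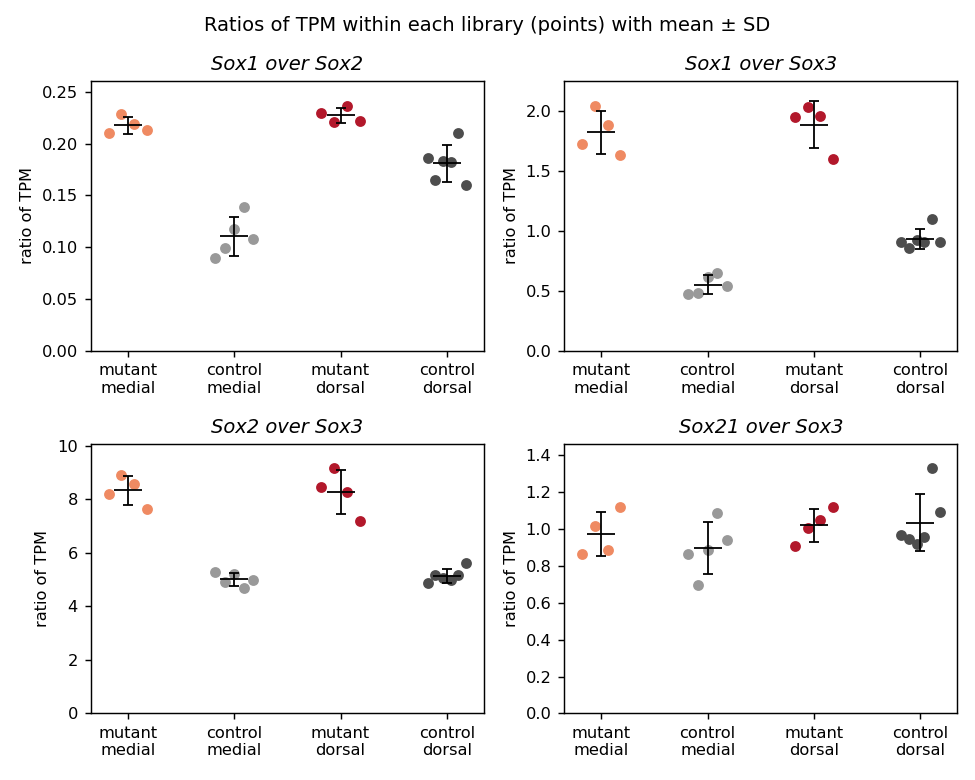
Ratio of TPM between 2 members within each library (points), with mean and SD (bars), in mutant and control medial cortex (n = 4 and 5) and mutant and control dorsal cortex (n = 4 and 6). Sox1 over Sox3 lay between 1.59 and 2.04 in all mutants and between 0.473 and 1.09 in all controls, while Sox21 over Sox3 overlapped.

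Whether the mutant effect differed by region was asked for each member as the medial minus the dorsal log2 change. For Sox1 the difference was 0.70 ± 0.16, at an unadjusted p of 0.000333 and an adjusted p of 0.322 in limma without a term for the embryo. In that fit 0 of 4 members passed, against 0.0074% of tested genes, which was the single gene Ccnd1 (cyclin D1), named after its values were seen, and 451 genes had an unadjusted p under 0.05. Medial and dorsal libraries of the same genotype and number deviated together and were treated as 1 embryo. With the embryo as a random block, the Sox1 difference was 0.69 ± 0.11 (limma adjusted p = 0.00722), among 49 called genes or 0.362%, and with the embryo as a fixed term it was 0.67 (limma adjusted p = 0.0229), among 16 genes or 0.118%. For the other members the difference without a block was 0.05 for Sox2 (95% interval −0.20 to 0.29), −0.01 for Sox3 (−0.29 to 0.27) and 0.13 for Sox21 (−0.25 to 0.51), and none passed with a block.

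The same pattern was visible embryo by embryo. In mutants the medial library held more Sox1 than the dorsal library in 4 of 4 embryos, at ratios of 1.25, 1.63, 1.36 and 1.54. In controls it held less in 5 of 5, at ratios of 0.787, 0.827, 0.994, 0.906 and 0.978. The ratios of Sox2, Sox3 and Sox21 lay above 1 in every embryo of both genotypes, from 1.36 to 1.61 in mutants and 1.38 to 1.54 in controls for Sox2. They ran from 1.41 to 1.62 in mutants and 1.42 to 1.63 in controls for Sox3. For Sox21 they ran from 1.20 to 1.64 in mutants and from 1.20 to 1.41 in controls.

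Medial and dorsal cortex were also compared within each genotype. In mutants all 4 members were higher medially, without overlap, against 8.03% of tested genes called higher and 7.11% higher without overlap. The log2 differences were 0.58 ± 0.09 for Sox2, 0.56 ± 0.10 for Sox3, 0.52 ± 0.12 for Sox1 and 0.48 ± 0.14 for Sox21 (limma adjusted p = 0.00207, 0.00289, 0.00740 and 0.0204). In controls 3 of 4 were higher medially, against 17.6% of tested genes, and Sox2 and Sox3 did not overlap, as held for 11.1% of genes. There the differences were 0.56 ± 0.09 for Sox3, 0.54 ± 0.08 for Sox2 and 0.36 ± 0.12 for Sox21 (limma adjusted p = 0.000164, 9.40e-05 and 0.0277), and −0.18 ± 0.10 for Sox1 (95% interval −0.40 to 0.03, adjusted p = 0.191). A limma fit of the 8 mutant libraries alone, without the embryo, called 0 genes at an adjusted p of 0.05, with 3643 genes at an unadjusted p under 0.05, and the members then had adjusted p from 0.0569 to 0.0844. With the embryo as a random block over all libraries, which called 5283 genes, the members had adjusted p from 3.85e-06 to 0.000273 in mutants, and medial was above dorsal in 4 of 4 pairs for each. The Sox21 calls were also lost without single libraries in either genotype.

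Markers of cell types moved with region as well. Among all tested genes, 8.03% were higher medially in mutants and 17.6% in controls. Of 21 radial glia markers, 11 were higher and 0 lower medially in mutants, and 14 higher and 1 lower in controls. Of 16 markers of neurons, 0 were higher and 12 lower medially in mutants, and 1 higher and 11 lower in controls. The share of all tested genes called lower medially is not given here, so these lower counts stand without it. The median log2 difference of these neuronal markers was −0.53 in mutants and −0.48 in controls, against 0.003 and 0.009 over all tested genes. Of 8 tested markers of the cortical hem, a signalling centre at the medial edge, 2 were higher medially in mutants and 7 in controls, with 0 lower. Their part in the regional levels of the SoxB genes was not tested.

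**Figure D4:**
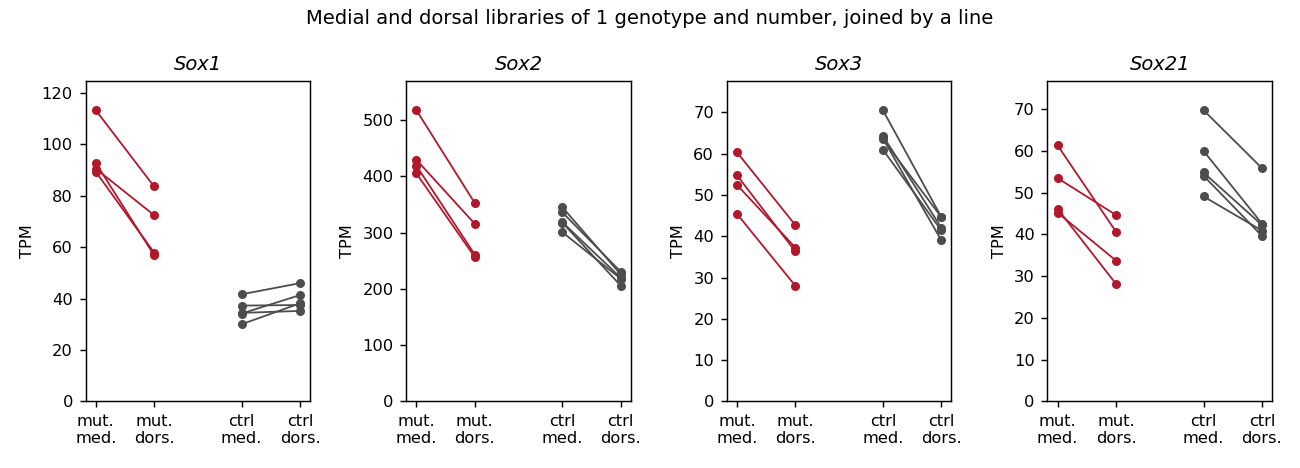
TPM of each member in the medial and the dorsal library of the same genotype and number, joined by a line, for 4 mutant and 5 control pairs (linear axes from 0). Lines of Sox2, Sox3 and Sox21 fall from medial to dorsal in every pair, whereas those of Sox1 fall in the 4 mutant pairs and not in the 5 control pairs.

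The transcripts next to the members were followed because they share their loci. Gm5607, which RefSeq names Sox1ot, is a noncoding gene on the same strand whose span at chr8:12385771-12436768 contains Sox1, with 0 exonic bases shared. It stood at 12.3, 18.8, 10.5 and 10.4 TPM in mutant medial libraries, against 1.03, 1.49, 2.20, 2.73 and 2.12 TPM in control medial libraries. In mutant dorsal libraries it stood at 23.2, 29.9, 15.7 and 18.9 TPM, against a mean of 5.43 TPM in control dorsal ones. Gm5607 rose without overlap in both regions, by 2.26 ± 0.21 medially and 1.81 ± 0.20 dorsally (limma adjusted p = 4.16e-07 and 2.17e-06). In mutants it was lower medially (log2 difference −0.71 ± 0.22, adjusted p = 0.0311), where Sox1 was higher. In controls it was also lower medially (−1.15 ± 0.19, adjusted p = 0.000259), where Sox1 had a log2 difference of −0.18 that did not pass. Unspliced Gm5607 RNA would run through Sox1 on the same strand, and its reads there cannot be told apart from those of Sox1.

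Sox2ot, a noncoding gene whose span holds Sox2 on the same strand with 0 exonic bases shared, averaged 15.9 TPM in mutant medial and 6.87 TPM in control medial cortex, without overlap. Dorsally it averaged 16.3 TPM in mutants and 10.3 TPM in controls. It rose by 1.11 ± 0.20 medially and 0.65 ± 0.19 dorsally (limma adjusted p = 0.000340 and 0.0136), and the dorsal call was lost with a term for sex. In controls it was lower medially (log2 difference −0.50, limma adjusted p = 0.0410, lost with a term for sex), where Sox2 was higher. In mutants the difference was −0.04 (limma adjusted p = 0.929). Unspliced Sox2ot RNA would run through Sox2 on the same strand, and its reads there cannot be told apart from those of Sox2. Gm4675, which shares 713 exonic bases with Sox21 on the opposite strand, had log2 changes of −0.22 medially and −0.13 dorsally and did not pass (adjusted p = 0.226 and 0.474). Gm14662, which starts 222 bases from Sox3 on the opposite strand, had changes of −0.07 medially, which turned to 0.02 under median-ratio and 0.12 under quantile scaling, and −0.16 dorsally (adjusted p = 0.734 and 0.369). The library kit marks strand, per the labels, but whether the counting used it is not given in the sources used here, so reads of Sox21 and Gm4675 may not be separated.

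The other Sox genes were counted beside the SoxB members. Sox14, the other SoxB2 gene, was at 0.0507 TPM or less in every library. Sry, which is among the 15 further genes counted next, was listed at 0. Of 15 further Sox genes, 10 passed the filter, and 0 were higher and 3 lower in medial mutants, and 0 higher and 4 lower in dorsal mutants (median log2 change −0.19 and −0.26, against −0.11 and −0.10 over all genes). These counts are near the shares of all tested genes, 9.44% higher and 30.2% lower medially and 9.93% and 27.6% dorsally. Medially these were Sox11 (−0.36, adjusted p = 0.0286), Sox4 (−0.24, adjusted p = 0.0412) and Sox12 (−0.25, adjusted p = 0.0419), the SoxC genes that act in young neurons. Dorsally, Sox5, which acts in deep-layer neurons, decreased most among them (−0.62, adjusted p = 0.00941), followed by Sox12 (−0.31, adjusted p = 0.0102) and Sox4 (−0.30, adjusted p = 0.0127), with Sox6 at −0.21 (adjusted p = 0.0436). After median-ratio rescaling 0 genes were called medially and 2 dorsally, Sox5 and Sox12. After quantile normalization Sox4 and Sox11 were called medially, and Sox4, Sox5, Sox11 and Sox12 dorsally, with 0 higher in each case. Sox9, which like Sox2 is expressed in radial glia, had log2 changes of −0.24 medially and −0.26 dorsally, both short of the test.

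**Figure D5:**
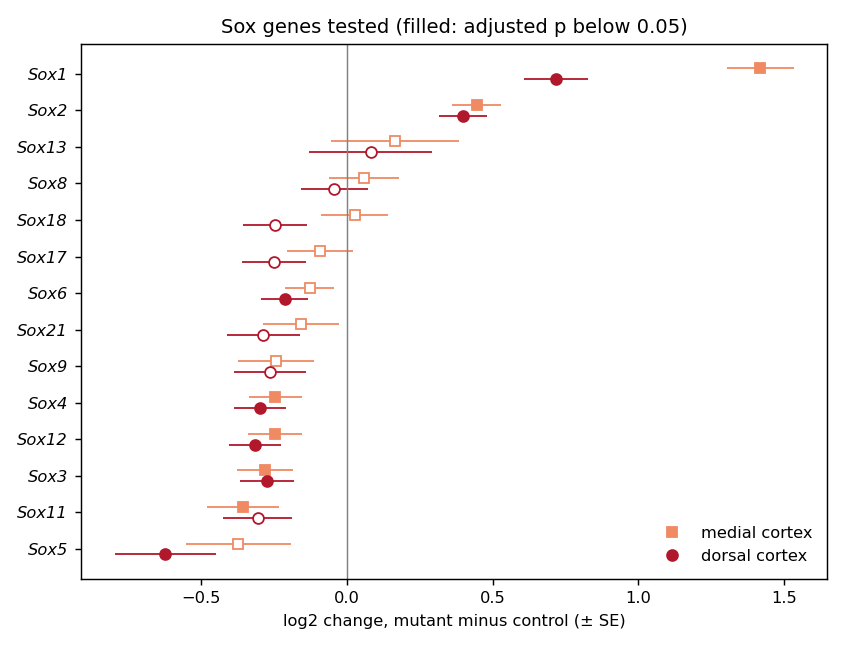
Log2 change (mutant minus control, ± SE) of each Sox gene that passed the filter, in medial (squares) and dorsal (circles) cortex; filled symbols passed an adjusted p of 0.05. Sox1 and Sox2 are the filled symbols to the right of 0, and the other filled symbols, Sox3 among them, lie to the left.

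Partners and neural targets of Sox2 were counted from a list of 28 genes, of which 20 were tested. In medial mutants 5 were higher and 0 lower, and in dorsal mutants 5 higher and 3 lower, against the same shares of all genes (9.44% higher and 30.2% lower, 9.93% and 27.6%). The median log2 changes were −0.03 medially, which turned to 0.05 under median-ratio and 0.04 under quantile scaling, and −0.09 dorsally. Pou3f4, a POU factor of neural progenitors, rose by 1.19 ± 0.14 medially and 0.59 ± 0.14 dorsally (limma adjusted p = 6.07e-06 and 0.00246). Jag1, a Notch ligand, rose by 0.71 ± 0.11 and 0.87 ± 0.11 (adjusted p = 0.000106 and 8.16e-06), and Msi2, an RNA-binding protein of progenitors, by 0.41 ± 0.07 and 0.32 ± 0.06 (adjusted p = 0.000114 and 0.000698). Under median-ratio or quantile scaling the medial counts were again 5 higher and 0 lower, and the dorsal ones 5 higher and 1 lower.

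Proneural factors and their relatives, which SoxB1 proteins counteract, were split. Of 11 tested, 2 were higher and 2 lower in each region, against 9.44% higher and 30.2% lower of all tested genes medially and 9.93% and 27.6% dorsally. Neurog1 rose by 1.19 ± 0.19 medially, at 30.1 TPM in mutants against 12.6 TPM in controls (limma adjusted p = 0.000121). Dorsally it rose by 0.89 ± 0.19, at 22.7 TPM in mutants against 11.4 TPM in controls (adjusted p = 0.00114). Neurog2, the main proneural gene of the cortex, fell by 0.29 ± 0.07 medially and 0.31 ± 0.07 dorsally (adjusted p = 0.00325 and 0.00206), and after median-ratio rescaling 3 genes of the list were higher and 1 lower in each region.

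Radial glia markers, which mark the cells that express SoxB genes, moved in both directions in mutants. Of 21 markers, 2 were higher and 6 lower medially, near the 9.44% higher and 30.2% lower of all tested genes. Dorsally 6 were higher and 9 lower, against 9.93% and 27.6% of all genes. Slc1a3, a glutamate transporter, rose by 0.73 ± 0.12 medially and 0.81 ± 0.11 dorsally (limma adjusted p = 0.000126 and 3.28e-05), whereas Aldoc, a glycolytic enzyme, fell by 1.34 ± 0.11 and 1.08 ± 0.11 (adjusted p = 1.50e-07 and 6.48e-07). The summed TPM of the markers ranged from 3919 to 4496 in mutant medial libraries, against 4756 to 5564 in control medial ones, and from 3206 to 3631 in mutant dorsal libraries, against 3613 to 4040 in control dorsal ones. Of 16 neuronal markers, 0 were higher and 11 lower medially, and 0 higher and 10 lower dorsally, against the same shares of all genes, with Dcx, a microtubule protein of young neurons, down by 0.58 and 0.53 on the log2 scale (adjusted p = 0.00116 and 0.00188). Their summed TPM ranged from 2691 to 3442 in mutant medial libraries, against 3966 to 5105 in control medial ones, and from 3732 to 5540 in mutant dorsal libraries, against 5813 to 6644 in control dorsal ones. After median-ratio rescaling 1 neuronal marker was higher and 10 lower medially, and 1 higher and 4 lower dorsally. The part of these markers in the changes of the SoxB genes was not tested.

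Other cell types were checked in the same way. Of all tested genes, 9.44% were higher and 30.2% lower medially, and 9.93% and 27.6% dorsally. The medial counts of lower ventral and hem markers as deposited lay near that share. Of 4 tested markers of oligodendrocyte precursors, 1 was higher and 0 lower in mutants of each region, and the summed TPM of the 6 listed markers ranged from 29.2 to 35.4 in mutant medial libraries against 3.43 to 11.0 in control medial ones, and from 16.1 to 26.4 in mutant dorsal libraries against 5.22 to 7.43 in control dorsal ones. For ventral telencephalon, 1 of 10 tested markers was higher and 4 lower medially, or 1 lower under quantile scaling, and 2 were higher and 0 lower dorsally. The median log2 change of the tested ventral markers was −0.36 medially and −0.18 dorsally, against −0.11 and −0.10 over all tested genes. Summed TPM of the 14 listed ventral markers was nevertheless higher medially, at 40.3 to 52.5 in mutant medial libraries against 28.3 to 37.6 in control medial ones, without overlap. Dorsally it ranged from 51.3 to 73.3 in mutants against 46.1 to 59.3 in controls. The ventral list shares Olig1 and Olig2 with that of oligodendrocyte precursors, so their sums are not independent. For the cortical hem, 0 of 8 tested markers were higher and 3 lower medially (median log2 change −1.06; with a sex term 1 was lower), and 0 higher and 1 lower dorsally. Summed hem markers ranged from 33.4 to 167 TPM in mutant medial libraries against 56.8 to 206 TPM in control medial ones, and from 37.4 to 47.0 TPM in mutant dorsal libraries against 68.3 to 77.8 TPM in control dorsal ones. Dorsally these sums rest on few genes, as 1 of 11 listed hem markers averaged 1 TPM or more in mutants and 3 in controls. The dorsal median log2 change of the tested hem markers was −0.05. Of 8 microglia markers, 0 were called medially, and 4 were lower dorsally, with sums of 36.4 to 48.3 TPM in mutant dorsal libraries against 57.2 to 74.0 TPM in control dorsal ones. Lists for endothelium, meninges and blood had at most 2 of 8 tested markers called in either region, all lower as deposited, while quantile scaling called 3 endothelial markers and 1 of the meninges higher medially. Summed choroid plexus markers reached 172 TPM in 1 mutant medial library and 984 TPM in 1 control medial library, against 18.9 and 29.0 TPM as the medians of these groups. The part of these cells in the SoxB values was not tested.

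The genes whose levels ran closest to each member over the 19 libraries were found by the root mean square difference of centred log2(TPM + 1), among 12085 named genes. For Sox1 these were Aunip, Lrrc1, Dut, Neurog1 and Sv2c, at differences of 0.21 to 0.24. For Sox2 they were Isoc1, Hs2st1, Prps2, Peg12 and Smo, at 0.10 to 0.11. For Sox3 they were Tsc22d4, Slitrk2, Ephb4, Spata13 and Ttyh2, at 0.07 to 0.10, and for Sox21 they were Nfkb1, Samd4, Flna, Lrp4 and Notch1, at 0.14 to 0.15. Sox1, which varied most between groups, also had the most distant neighbours. The libraries share their genotype and region groups.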

How the data were processed

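RNA-seq of E14.5 mouse cortex was deposited by the authors as 1 table of TPM. Per the labels' protocols, libraries were made with a stranded total RNA kit (TruSeq) after purification on RNeasy Micro columns, and mm10 is the build in the submitters' processing notes. Not given in the sources used here are the aligner, quantifier, annotation and strand setting. Each column summed to a fixed total, so depth is unknown and no counting error can be given.

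Groups and numbers were taken from titles; the descriptions number the medial controls 1 to 5 where the titles give 2 to 6. Genes that reached 1 TPM in 4 or more libraries (13520 of 47643) were fitted as log2(TPM + 1) in limma 3.58.1 (R 4.3.3, trend and robust), with 1 mean per group over 19 libraries and Benjamini-Hochberg adjustment per comparison; a fold change on this scale understates that of low genes. Log2 ratios of members were compared by exact permutation (Python 3.11.15, scipy 1.17.1). The 4 members and the gene lists were chosen with earlier results of these data known. Members were always named; of the lists, the counts and up to 3 genes of smallest adjusted p. Sox6 and Sox9 were named after their values were seen, and Smo and Gli1 as a check of genotype.

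Pairing was checked on deviations from group means: the 9 medial and dorsal pairs of the same genotype and number correlated at r = 0.549 to 0.795, and 7 mutant and control pairs of the same number at r = −0.436 to 0.138. With the description numbers the 5 control pairs correlated at r = −0.438 to 0.0469, against 0.549 to 0.795 with the title numbers. Title numbers were therefore read as embryos of 1 genotype; the data, not the labels, give this pairing. Alternatives were blocks by embryo, a pseudocount of 0.1, no filter, median-ratio and quantile scaling, a sex term, fits of only the groups compared, and each library left out. The fit was tested on simulated data. Coordinates are 1-based (GENCODE M21, GRCm38), and promoters are from RefSeq (GRCm38.p6). Plots were drawn with matplotlib 3.10.9.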

Additional observations from a re-analysis of the deposited data

Results flagged for a closer look

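Among 16 groups of member values, 1 library stood apart from the others of its group by Dixon's criterion at the 95% level, which chance alone meets in about 1 group in 20. Sox1 was at 113 TPM in mutant medial library 3, against 90.5, 92.8 and 89.4 TPM in the other mutant medial libraries. Without both libraries of mutant embryo 3, an alternative added after seeing the data, the calls of Sox1 in both regions were kept.

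The log2 change of Sox1 in mutants differed between regions by 0.70 (medial minus dorsal), which passed the test with the embryo as a block and not without it.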

How the results depend on the processing

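Sox1 and Sox2 kept their direction and call between mutant and control in both regions under every alternative run, and no other member result or ratio changed direction where it was called.
The Sox3 calls were lost under median-ratio scaling (−0.18 medially, −0.19 dorsally), quantile scaling (−0.21, −0.19), a sex term (−0.27, −0.27) and, dorsally, in a fit of both dorsal groups alone (−0.27). Sox21 passed dorsally with a sex term (−0.42) and without mutant embryo 3 (−0.38).
With a block by embryo, the genes called for the difference between regions numbered 49 (random) and 16 (fixed), against 1, and Sox1 passed at 0.69 and 0.67. Medial against dorsal calls numbered 5283 and 4950 in mutants with these blocks, against 2545, and 6614 in controls with the random block, against 4387; the block changed no other call of a member. Numbers shared across genotypes did not pair libraries, and a block by them changed no call of a member. A fit of mutant libraries alone called 0 genes and lost Sox1 (0.52), Sox2 (0.58), Sox3 (0.56) and Sox21 (0.48). Without a filter limma called 0 genes for the difference of the mutant effect between regions (839 at an unadjusted p under 0.05).
Leaving out 1 library each time gave Sox3 changes of −0.34 to −0.21 medially (lost without control library 3 or mutant library 1 or 2) and −0.36 to −0.16 dorsally (lost without control library 1 or mutant library 2). Sox21 lay at −0.38 to −0.17 dorsally, and at 0.37 to 0.58 in mutants and 0.29 to 0.42 in controls between regions, lost in mutants without dorsal library 1 or 2 or medial library 3 or 4, and in controls without dorsal library 3 or 4 or medial library 5 or 6; dorsal Sox21 passed without mutant library 3. Medial Sox2 over Sox21 ran from 0.51 to 0.72 and passed only without control library 3 or mutant library 4. Genes called numbered 0 to 3 for the difference and 1138 to 3678 between mutant regions, where mutant dorsal library 2 or 4 or medial library 3 decided the low counts. Median-ratio scaling gave 2138 higher and 2341 lower genes medially, and 2079 and 1998 dorsally, against 1276 and 4081, and 1343 and 3727. The causes were not tested.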
